A study of Mus musculus with 9 samples.

Results

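Kinesins are motor proteins that move along microtubules, and their genes carry symbols that begin with Kif and a number. All such genes named by the annotation of the mouse array were taken, 37 of 18193 genes, and each was read through the probe set with the highest mean signal over all 9 arrays. They were divided into 11 mitotic kinesins (Kif2c, Kif4, Kif11, Kif14, Kif15, Kif18a, Kif18b, Kif20a, Kif20b, Kif22 and Kif23) and 26 others. The others are a mixed class, with motors that transport cargo and also members such as Kif2a, which removes tubulin at spindle poles. Of the 37 genes, 27 had a mean signal above 25.3, the level of the lowest 40% of probe sets, and were tested: 9 of the mitotic and 18 of the other kinesins.

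The arrays were of T-cell lymphomas from G3 Atm-/-TERT-ER mice, in which 4-hydroxytamoxifen (4-OHT) controls a telomerase reverse transcriptase fused to an oestrogen receptor domain. Every tumour, those of the telomerase group included, lacked Atm, carried TERT-ER, derived from lymphomas that arose under 4-OHT and was labelled with SCID mice as recipients. The ALT group held 5 tumours at passage 4 in recipients on vehicle, which maintained telomeres by alternative lengthening (ALT). The telomerase group held 3 tumours at passage 4 in recipients on 4-OHT. A single array was of the telomerase-positive parental tumour, whose labels state no passage, and it is described without a test. Absence of the drug, absence of telomerase activity and the presence of ALT went together, and cannot be told apart. The labels do not say that the tumours of a group came from separate mice, so each p-value here reflects the spread of these samples alone.

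Kinesins turn ATP hydrolysis into movement along microtubules, or into removal of tubulin from microtubule ends. In a dividing cell, mitotic kinesins separate the spindle poles, move chromosome arms, set microtubule length and build the midzone at which the cell divides. Most of their genes are transcribed late in the cell cycle, under repression in resting cells by complexes that bind the cell cycle genes homology region (CHR) of the promoter, often beside CCAAT boxes. Transport kinesins carry vesicles, organelles and ciliary components in cells that divide and in cells that do not.

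The promoter sequences show how the mitotic and the other kinesins differ in that element. Windows of 300 bases, with 250 before and 50 after the gene start, were taken from RefSeq on build GRCm38.p6 and were found for 31 of the kinesin genes, as 35 windows. The CHR was searched as TTTGAA, on both strands and thus also as TTCAAA, and the CCAAT box as CCAAT, thus also as ATTGG. These motifs share no overlap in the windows printed here. A CHR match was in 9 of 10 mitotic windows (90%) and in 3 of 25 windows of other kinesins (12%), against 17.9% of all 32851 windows. CCAAT was in 60% of mitotic windows, 36% of other kinesin windows and 37.4% of all windows. Both motifs stood in 60% of mitotic windows, 8% of other kinesin windows and 6.95% of all windows. A CHR starting within 50 bases of the gene start was in 7 of 10 mitotic windows and 2 of 25 windows of other kinesins (8%), against 4.94% of all windows. Kif18a alone among the 10 mitotic windows held no CHR match, and no window was found for Kif20a. Kif11 and Kif22 are shown as the mitotic kinesins that fell and rose in the test, Kif20b as a mitotic kinesin with a pair of CHR matches, and Kif3a as the transport kinesin with the lowest log2 change. Capitals mark the CHR and CCAAT matches, and each run is written 5′ to 3′ along the strand of its gene.
Kif11 (chr19:37376132-37376431, plus strand): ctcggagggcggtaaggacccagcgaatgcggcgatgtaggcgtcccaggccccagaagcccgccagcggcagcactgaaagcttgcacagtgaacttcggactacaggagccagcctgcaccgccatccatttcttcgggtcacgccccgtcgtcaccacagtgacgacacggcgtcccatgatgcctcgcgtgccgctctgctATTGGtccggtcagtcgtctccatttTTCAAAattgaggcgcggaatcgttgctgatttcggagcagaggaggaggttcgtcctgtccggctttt
Kif22 (chr7:127042371-127042670, minus strand): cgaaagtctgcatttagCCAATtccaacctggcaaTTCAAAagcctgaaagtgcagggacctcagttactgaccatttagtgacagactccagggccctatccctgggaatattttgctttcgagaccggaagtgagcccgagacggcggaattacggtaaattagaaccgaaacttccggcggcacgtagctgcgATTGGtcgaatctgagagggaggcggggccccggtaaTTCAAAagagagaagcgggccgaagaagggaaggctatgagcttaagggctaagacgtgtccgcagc
Kif20b (chr19:34922108-34922407, plus strand): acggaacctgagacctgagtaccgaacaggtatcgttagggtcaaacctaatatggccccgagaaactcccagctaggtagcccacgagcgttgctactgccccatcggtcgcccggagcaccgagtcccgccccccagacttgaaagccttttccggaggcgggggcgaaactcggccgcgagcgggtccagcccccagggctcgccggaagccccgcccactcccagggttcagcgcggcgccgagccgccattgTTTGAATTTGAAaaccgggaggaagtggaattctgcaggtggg
Kif3a (chr11:53567119-53567418, plus strand): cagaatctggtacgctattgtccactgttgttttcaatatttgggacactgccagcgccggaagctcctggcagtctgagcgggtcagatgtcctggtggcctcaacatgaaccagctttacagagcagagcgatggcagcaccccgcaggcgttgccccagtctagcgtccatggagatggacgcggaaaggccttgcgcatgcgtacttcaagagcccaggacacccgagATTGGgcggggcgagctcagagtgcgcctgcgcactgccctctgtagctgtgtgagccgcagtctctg
In the Kif11 window the CHR started at -19 from the gene start and the CCAAT box at -45. In Kif22 a CHR at -17 lay beside a CCAAT box at -54, and a further CHR at -215 beside a CCAAT box at -233. Kif20b had CHR matches at 8 and 14, after its start, and no CCAAT. Kif3a had a CCAAT box at -18 and no CHR. A match is a description of letters and does not show a bound site. Of the mitotic genes with a CHR near their start, Kif11 had a log2 change of -0.83 in the tumours. Kif4, Kif18b, Kif20b, Kif22 and Kif23 had changes of 0.05, 0.43, 0.43, 0.28 and 0.13, and Kif15 was not tested. Only Kif11 and Kif22 passed the threshold given below. The part of the CHR in these changes was not tested.

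Signals are the MAS5 intensities that the authors deposited, untransformed, and the median signal of an array was between 39.8 and 43.8. Levels of different probe sets are not comparable with each other, since each binds with its own efficiency. Log2 changes are ALT minus telomerase on log2(signal + 16). Tests are limma's, two-sided, with p adjusted by Benjamini-Hochberg over all 12368 tested genes and a threshold of 0.05. T-cell markers, 9 of 10 listed genes, had a summed signal of 19976 to 25698 in ALT tumours. It was 27331 to 29883 in telomerase tumours and 28922 in the parental tumour. Cd3d, Cd3g and Thy1 made most of the sum, at means of 8293, 6762 and 5316 over all arrays, against 76.0 for Cd4. Cd3d, Cd3e and Cd3g fell, by 0.39, 0.50 and 0.82 on the log2 scale, while Cd2, Cd8b1 and Cd4 rose. In bulk samples fewer cells of a type and less RNA per cell cannot be told apart. Pancreatic acinar transcripts (10 of 12 listed genes) stood apart: their summed signal was 78483, 120370 and 155630 in ALT tumours 1, 2 and 5 and 101660 in telomerase tumour 3, against 272 to 911 in the remaining 5 arrays. Skeletal muscle transcripts were high in telomerase tumour 1 (8372) and in the parental tumour (12707), against 209 to 540 elsewhere. The part of these cells in the kinesin results was not tested, and values within arrays with and without acinar transcripts are given beside the kinesins that passed and their partners.

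Across the family, 5 of the 27 tested kinesins (18.5%) passed the threshold, close to the 17.5% of all tested genes. Kif22 rose, which makes 1 of 27 against 7.48% of all genes. Kif11, Kif3a, Kif1c and Kif2a fell, 4 of 27 against 10.1% of all genes. The 5 calls became 3 without telomerase tumour 1 or 3. The median log2 change of the 27 genes was 0.06, beside -0.01 over all tested genes. Groups did not overlap for 5 kinesins that were higher in every ALT tumour (10.9% of all genes were so) and for 5 that were lower in every ALT tumour (13.9% of all genes). The mitotic kinesins, each read through its brightest probe set, had a positive log2 change in 8 of 9 cases, with a median of 0.13. Kif11 was the exception. Dimmer tested probe sets of Kif2c (-0.07 and -0.24) and Kif23 (-0.22) had negative changes, while the remaining tested probe sets of both genes had positive ones. Of all 12368 tested genes 6074 had a positive change. The median of the mitotic kinesins was 0.28 without telomerase tumour 2 and 0.21 without ALT tumour 1. Kif4 and Kif20a turned negative without telomerase tumour 3 (-0.10 and -0.09), as Kif4 did without ALT tumour 5 (-0.01). The other kinesins divided evenly, with 9 positive and 9 negative changes and a median of 0.00066. The plot of log2 changes by gene places Kif11 apart from the rest of its class.

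**Figure D1:**
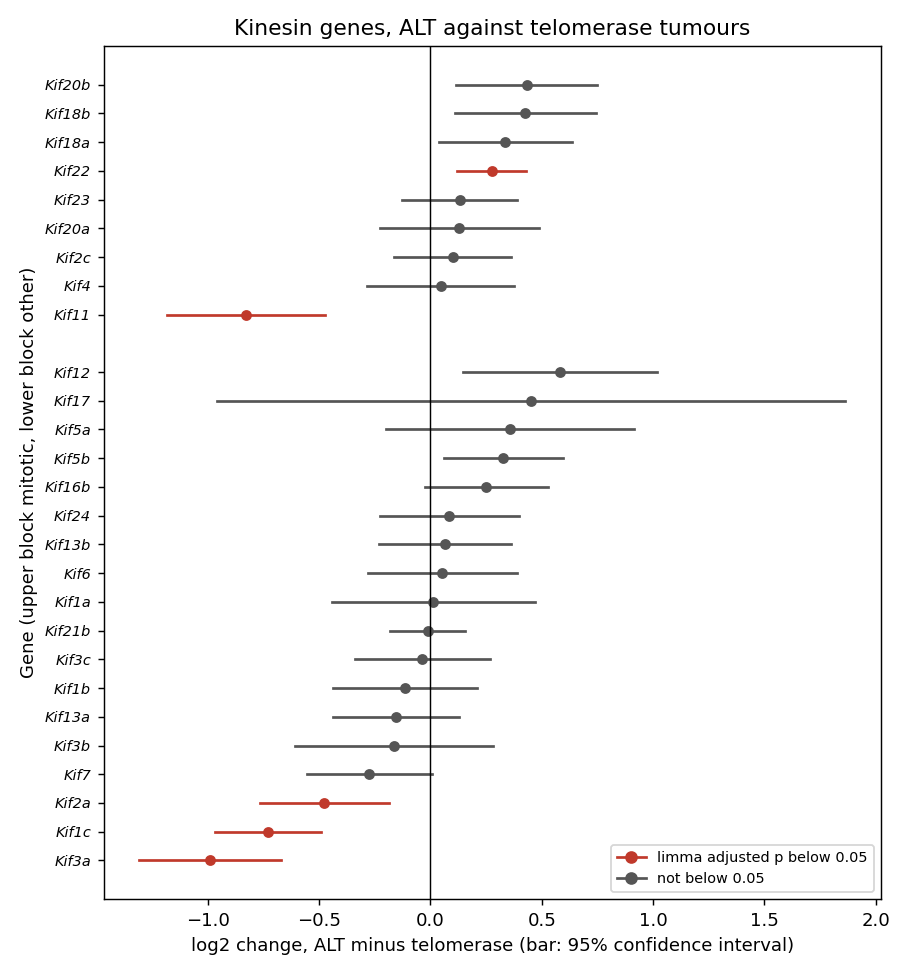
Log2 change of each tested kinesin, ALT minus telomerase (5 against 3 tumours), with its 95% confidence interval, the mitotic kinesins in the upper block and the others in the lower, and red for limma adjusted p below 0.05. Kif11 lies at -0.83 below 8 mitotic kinesins at 0.05 to 0.43, and the other kinesins run between -0.99 for Kif3a and 0.58 for Kif12.

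Kif11, the kinesin-5 motor that crosslinks and slides antiparallel microtubules to push the spindle poles apart, had signals of 869, 789, 614, 533 and 689 in ALT tumours 1 to 5. In telomerase tumours 1 to 3 its signals were 1371, 1294 and 1062, and in the parental tumour 1256. All 5 ALT tumours were below all 3 telomerase tumours, and the parental tumour lay among the telomerase tumours. The means were 699 ± 134 in ALT tumours and 1242 ± 161 in telomerase tumours (SD, n = 5 and 3), a log2 change of -0.83 (SE 0.158, limma adjusted p = 0.00632). The other probe sets of the gene fell too, by 0.73 and 0.72 on the log2 scale, again without overlap between the groups. Among arrays with acinar transcripts the change was -0.44 (limma adjusted p = 0.288), with telomerase tumour 3 as the single comparison array. Among arrays without them it was -1.20 (limma adjusted p = 0.00555). Leaving out any single array kept the call, with limma adjusted p between 0.00519 and 0.0385.

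Kif15, a kinesin-12 motor that can hold spindle poles apart when Kif11 is inhibited, was below the signal filter, with 6.12 to 34.9 in ALT tumours, 10.6 to 15.5 in telomerase tumours and 25.7 in the parental tumour. No test was made of it. The values ran near the pseudocount of 16, where small differences in signal carry little weight.

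The chromokinesins Kif22 and Kif4 bind chromosome arms and push them towards the spindle equator. Kif22 had signals of 3395, 3755, 3385, 3465 and 3924 in ALT tumours 1 to 5, against 3052, 2960 and 2853 in telomerase tumours 1 to 3, and 3761 in the parental tumour. Every ALT tumour was above every telomerase tumour, but the parental tumour, which had telomerase, lay among the ALT tumours. The means were 3585 ± 242 in ALT tumours and 2955 ± 99.5 in telomerase tumours (SD, n = 5 and 3), a log2 change of 0.28 (SE 0.0686, limma adjusted p = 0.0218). The call was lost without telomerase tumour 1, 2 or 3 (limma adjusted p = 0.0581, 0.0671 and 0.0761), and with the parental array added to the telomerase group (0.19, limma adjusted p = 0.133). The probe set used can match related transcripts, as its suffix on this array shows. A probe set without that suffix gave 0.17 (limma adjusted p = 0.338). Arrays with acinar transcripts gave 0.37 (limma adjusted p = 0.245) and arrays without them 0.19 (limma adjusted p = 0.259). Kif4 had signals of 277 to 404 in ALT tumours and 266 to 377 in telomerase tumours, which overlapped, with a log2 change of 0.05 (95% confidence interval -0.28 to 0.38).

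The kinesin-8 motors Kif18a and Kif18b act at microtubule plus ends. Kif18a, which limits the oscillation of chromosomes at the spindle equator, had signals of 518, 596, 510, 515 and 713 in ALT tumours 1 to 5, against 398, 510 and 432 in telomerase tumours 1 to 3. The groups touched without overlap, as ALT tumour 3 was at 510.25 and telomerase tumour 2 at 509.87. The log2 change was 0.34 and did not pass (limma adjusted p = 0.114). Kif18b, which shortens the astral microtubules, had 269, 406, 309, 288 and 379 in ALT tumours, against 245.47, 248.87 and 221.88 in telomerase tumours. Its groups did not overlap either, and the log2 change of 0.43 did not pass (limma adjusted p = 0.0648). It passed without ALT tumour 1, at 0.49 (limma adjusted p = 0.0448). Both parental values, 402 for Kif18a and 266 for Kif18b, were below all ALT values of the same gene.

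The kinesin-6 motors act at the midzone and midbody in cytokinesis. Kif20b, which is needed for the last steps of cell division, had signals of 788, 959, 1195, 760 and 840 in ALT tumours 1 to 5, against 621, 683 and 676 in telomerase tumours 1 to 3, and 674 in the parental tumour. Every ALT tumour was above every telomerase tumour, with ALT tumour 3 the highest. The log2 change was 0.43 (limma adjusted p = 0.0629), and it passed without ALT tumour 4, at 0.49 (limma adjusted p = 0.0447). All 4 probe sets of Kif20b had positive changes, from 0.36 to 0.58, and 0 of 4 passed on their own. Kif23, the motor subunit of centralspindlin, which bundles the midzone, had 938, 1383, 1236, 1167 and 1115 in ALT tumours, against 1016, 1081 and 1071 in telomerase tumours. The groups overlapped, since ALT tumour 1 was the lowest of all, and the log2 change was 0.13 (limma adjusted p = 0.478, 95% confidence interval -0.13 to 0.39). Kif20a, which brings the Aurora B complex to the midzone, ran from 564 to 683 in ALT tumours and from 415 to 727 in telomerase tumours. Its log2 change of 0.13 (limma adjusted p = 0.623) turned to -0.09 without telomerase tumour 3.

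Kif2c, a kinesin-13 that removes tubulin from microtubule ends at centromeres, ran from 585 to 819 in ALT tumours, against 600 to 685 in telomerase tumours, with 716 in the parental tumour. Its groups overlapped, at a log2 change of 0.10 (limma adjusted p = 0.606, 95% confidence interval -0.16 to 0.36). Kif14, a motor of the midbody, was below the signal filter at 16 to 38.8 in ALT tumours and 12.2 to 30.4 in telomerase tumours.

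**Figure D2:**
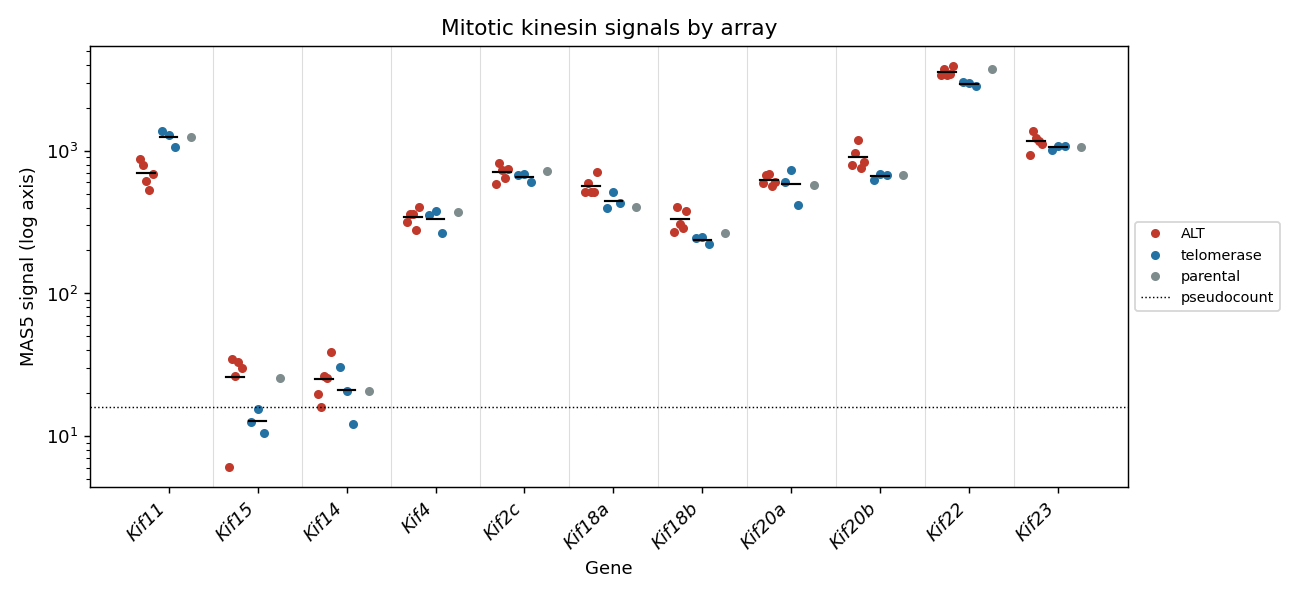
MAS5 signal (log axis) of the 11 mitotic kinesins in each ALT, telomerase and parental tumour, with a black line at each group mean and the pseudocount of 16 dotted. Kif11 is lower in all 5 ALT tumours, Kif18a, Kif18b, Kif20b and Kif22 are higher in all 5, and Kif14 and Kif15 lie near the pseudocount.

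Each gene was also read in every tumour as its log2 signal minus the mean of the telomerase tumours. Kif11 was lowest in ALT tumours 3 and 4, at -0.99 and -1.19. The median of the remaining 8 mitotic kinesins in the same 2 tumours was 0.21 and 0.17, above the 0.04, 0.06 and -0.07 of the telomerase tumours. The same median was highest in ALT tumour 2 (0.36) and lowest among ALT tumours in tumour 1 (0.11). ALT tumour 1, with the lowest such median among ALT tumours, had the highest Kif11 of them, at -0.50. ALT tumours 4 and 3 had the next lowest medians, below the 0.31 of ALT tumour 5. They were also the ALT tumours without acinar transcripts, and the part of those transcripts was not tested.

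Other genes of cell division give the setting for these values. Of 13 tested cyclins and proliferation genes, 0 passed in limma, against 17.5% of all tested genes, 2 had an unadjusted p under 0.05, against 3884 of all 12368, and the median log2 change was 0.01. Mki67, the Ki-67 antigen of dividing cells, averaged 4158 ± 390 in ALT tumours and 3692 ± 302 in telomerase tumours (SD, n = 5 and 3), with limma adjusted p = 0.224. Top2a, a topoisomerase of dividing cells, gave -0.02 (limma adjusted p = 0.895), and Pcna, the replication clamp, gave -0.02 (limma adjusted p = 0.927), with overlapping groups in both. Among 32 genes of spindle assembly and the spindle checkpoint, 6 rose and 0 fell, with a median of 0.18. A positive change was found in 25 of the 32, beside 6074 of all 12368 tested genes. These 6 calls (18.75%) stand beside 17.5% of all tested genes called in either direction and 7.48% called higher. Ska2, a subunit of a complex that couples kinetochores to microtubules, averaged 660 ± 70.2 in ALT tumours and 416 ± 52.9 in telomerase tumours (SD, n = 5 and 3), a log2 change of 0.65 (limma adjusted p = 0.0049). Cenpa, the centromeric histone, rose by 0.42, Nusap1, a microtubule bundler, by 0.36, and Tpx2, a Kif11 partner and spindle assembly factor, by 0.40 on the log2 scale. The 6 calls became 3 without ALT tumour 2, and 1, 3 and 2 without telomerase tumour 1, 2 or 3. They became 0 both within arrays with acinar transcripts and within arrays without them. With the mean of all probe sets of each gene the list had 1 gene higher and 2 lower. Nusap1 then turned to -0.40 and passed as lower (limma adjusted p = 0.0481), and the calls of Ska2 (0.17, limma adjusted p = 0.247), Cenpa (0.32, limma adjusted p = 0.071) and Tpx2 (0.02, limma adjusted p = 0.914) were lost. The median of the list was then 0.09.

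Of 12 genes of the central spindle and cytokinesis, 3 rose and 2 fell, beside 7.48% of all tested genes higher and 10.1% lower. Racgap1, the partner of Kif23 in centralspindlin, had signals of 1424, 1635, 1913, 1237 and 1884 in ALT tumours 1 to 5, against 857, 905 and 736 in telomerase tumours 1 to 3. No values overlapped, and the log2 change was 0.93 (SE 0.148, limma adjusted p = 0.00254), while Kif23 itself gave 0.13. With the mean of its probe sets Racgap1 gave 0.34 and did not pass (limma adjusted p = 0.0828). Rhoa, the GTPase of the contractile ring, rose by 0.43 (limma adjusted p = 0.0217) and Anln, which anchors that ring, by 0.45 (limma adjusted p = 0.0267). The call of Rhoa was lost without telomerase tumour 1 (limma adjusted p = 0.103). That of Anln was lost without ALT tumour 2 or 3 and without telomerase tumour 1 or 3 (limma adjusted p up to 0.119). With the mean of probe sets Anln gave -0.01 (limma adjusted p = 0.962). Psrc1, a spindle protein, fell by 1.19 (limma adjusted p = 0.0222). Its call was lost without ALT tumour 1 or 2 and without telomerase tumour 1 or 2 (-0.79 without telomerase tumour 1, limma adjusted p = 0.0693), and with the mean of its probe sets (-0.56, limma adjusted p = 0.135). Cep55, a midbody protein named because its gene lies near Kif11 and chosen after its values were seen, fell by 0.56 (limma adjusted p = 0.0312). Its groups overlapped, as ALT tumour 1 was at 901 and telomerase tumour 3 at 867. Its call was lost without ALT tumour 2, 3 or 4 and without telomerase tumour 1 or 2 (limma adjusted p up to 0.122). With the mean of its probe sets Cep55 gave -0.60 and did not pass (limma adjusted p = 0.0571). The 5 calls became 2 without ALT tumour 2, 3 without ALT tumour 3, 1 without telomerase tumour 1 and 3 without telomerase tumour 2, and within arrays with and without acinar transcripts 1 and 2. With the mean of probe sets there was 1 call, higher. Mitotic kinesins whose symbols lie outside the Kif series did not pass: Cenpe, which carries chromosomes to the spindle equator, at -0.12 (limma adjusted p = 0.632), and Kifc1, a minus-end motor that draws spindle poles together, at 0.25 (limma adjusted p = 0.232).

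Among the other kinesins, 0 of 18 rose and 3 fell, with 1 gene (Kif12) higher and 4 genes (Kif3a, Kif1c, Kif2a and Kif7) lower in every ALT tumour. Of all tested genes 7.48% rose, 10.1% fell, 10.9% were higher and 13.9% lower in every ALT tumour. The largest fall was in Kif3a, a kinesin-2 motor that pairs with Kif3b and carries cargo into cilia and along axons. Kif3a had signals of 59.5, 53.0, 84.0, 65.1 and 62.4 in ALT tumours 1 to 5, against 126, 153 and 152 in telomerase tumours 1 to 3, and 121 in the parental tumour. The highest ALT value was below the lowest telomerase value. The means were 64.8 ± 11.6 in ALT tumours and 144 ± 15.04 in telomerase tumours (SD, n = 5 and 3), a log2 change of -0.99 (SE 0.142, limma adjusted p = 0.00143). All 4 probe sets fell, by 0.99, 1.08, 1.57 and 1.44 on the log2 scale, none with overlap. The change was -1.18 among arrays with acinar transcripts (limma adjusted p = 0.0575) and -0.79 among arrays without (limma adjusted p = 0.0627).

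The partners of Kif3a did not all follow. Kifap3, the non-motor subunit that joins Kif3a and Kif3b to cargo, had 86.6, 110, 120, 147 and 98.9 in ALT tumours 1 to 5, against 166, 157 and 183 in telomerase tumours 1 to 3. It fell by 0.54 on the log2 scale without overlap (limma adjusted p = 0.0364). The call was lost without ALT tumour 1, 2 or 5 (limma adjusted p = 0.0637, 0.0679 and 0.0607) and without telomerase tumour 1, 2 or 3 (0.108, 0.076 and 0.117). Kifap3 gave -0.80 among arrays with acinar transcripts (limma adjusted p = 0.138) and -0.25 among arrays without (limma adjusted p = 0.42). Kif3b ran from 103 to 203 in ALT tumours and from 144 to 182 in telomerase tumours, at a log2 change of -0.16 (limma adjusted p = 0.623). Another probe set of Kif3b was higher in every ALT tumour (116 ± 19.4) than in telomerase tumours (49.9 ± 15.2; SD, n = 5 and 3), at 1.01 (limma adjusted p over probe sets = 0.00363). Kif3c, the alternative partner of Kif3a, gave -0.04 (95% confidence interval -0.34 to 0.27).

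Kif1c, a kinesin-3 motor of vesicle transport, had signals of 150, 168, 199, 159 and 177 in ALT tumours 1 to 5, against 294, 288 and 294 in telomerase tumours 1 to 3, and 298 in the parental tumour. The telomerase and parental values lay within a narrow band above all ALT values. The means were 170 ± 18.8 in ALT tumours and 292 ± 3.50 in telomerase tumours (SD, n = 5 and 3), a log2 change of -0.73 (SE 0.106, limma adjusted p = 0.00155). A dimmer probe set of Kif1c gave -0.02 (limma adjusted p over probe sets = 0.95), and 2 more were below the filter. Averaging the probe sets gave -0.28 (limma adjusted p = 0.168). The change was -0.78 among arrays with acinar transcripts (limma adjusted p = 0.113) and -0.66 among arrays without (limma adjusted p = 0.0627).

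Kif2a, a kinesin-13 that removes tubulin at spindle poles and in growing axons, had signals of 601, 548, 619, 663 and 436 in ALT tumours 1 to 5, against 815, 757 and 819 in telomerase tumours 1 to 3, and 898 in the parental tumour. All ALT values lay below all telomerase values, with ALT tumour 5 the lowest. The log2 change was -0.48 (SE 0.130, limma adjusted p = 0.0314). One further probe set was also lower in every ALT tumour (-0.27), another was higher in every ALT tumour (0.42), and the dimmest tested one gave 0.07, so the probe sets of Kif2a disagreed and their mean gave -0.05 (limma adjusted p = 0.725). The call was lost without ALT tumour 2 (limma adjusted p = 0.0638) and without telomerase tumour 1, 2 or 3 (0.111, 0.0689 and 0.0898). Among arrays with acinar transcripts the change was -0.63 (limma adjusted p = 0.196), and among arrays without them -0.29 (limma adjusted p = 0.238).

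Kif5b, the kinesin-1 heavy chain found in most tissues, had signals of 1510, 1790, 1535, 1664 and 1574 in ALT tumours 1 to 5, against 1168, 1602 and 1120 in telomerase tumours 1 to 3. Telomerase tumour 2 lay among the ALT tumours, and the others were below them. The log2 change was 0.33 (limma adjusted p = 0.0882), and it was 0.49 without telomerase tumour 2 (limma adjusted p = 0.0124). All 6 probe sets of Kif5b were positive, from 0.30 to 0.57, and 3 of them passed over probe sets. Its light chains bind cargo: Klc3 fell by 0.46 (limma adjusted p = 0.0461), Klc1 gave -0.20 (limma adjusted p = 0.368) and Klc4 gave 0.08 (limma adjusted p = 0.712). The call of Klc3 was lost without ALT tumour 2, 3 or 4 and without telomerase tumour 1 or 2, with limma adjusted p up to 0.195. Klc3 gave -0.16 among arrays with acinar transcripts (limma adjusted p = 0.782) and -0.71 among arrays without (limma adjusted p = 0.0422). Klc2 was not analysed here. Kif5a, a heavy chain of neurons, gave 0.36 with overlap (limma adjusted p = 0.368), and Kif5c, likewise neuronal, was below the filter.

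Kif7, a ciliary kinesin-4 of Hedgehog signalling, was 168, 163, 142, 184 and 126 in ALT tumours 1 to 5, against 188, 189 and 197 in telomerase tumours 1 to 3. The groups did not overlap, and the log2 change of -0.27 did not pass (limma adjusted p = 0.169). Kif12, a motor known from kidney epithelium, was 53.9, 58.5, 54.9, 46.6 and 97.4 in ALT tumours, against 38.4, 32.4 and 34.8 in telomerase tumours and 13.6 in the parental tumour. Every ALT tumour was higher, with ALT tumour 5 far above the rest, and the log2 change of 0.58 did not pass (limma adjusted p = 0.068). A second probe set of Kif12 gave -0.45. Kif17, a kinesin-2 of dendrites, had signals of 65.3, 80.0, 31.0, 24.0 and 354 in ALT tumours 1 to 5. Its signals were 43.4, 29.6 and 83.8 in telomerase tumours 1 to 3. Arrays with acinar transcripts (ALT tumours 1, 2 and 5, telomerase tumour 3) thus held 65.3 to 354, and all arrays without them 24.0 to 43.4. The log2 change of Kif17 was 0.45 (limma adjusted p = 0.671). Without ALT tumour 5 that change was -0.06. A second probe set of Kif17 did not divide so, at 69.2 to 104 in arrays with acinar transcripts and 57.2 to 101 without. Kif21b, a kinesin-4 that restrains microtubule growth and is known from human T cells, was nearly even, at 1427 ± 90.1 in ALT tumours and 1437 ± 17.6 in telomerase tumours (SD, n = 5 and 3), with a 95% confidence interval of -0.18 to 0.15 for the log2 change. The remaining 7 tested kinesins (Kif1a, Kif1b, Kif6, Kif13a, Kif13b, Kif16b and Kif24), among them vesicle and endosome motors, overlapped between groups and lay between -0.15 for Kif13a and 0.25 for Kif16b.

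**Figure D3:**
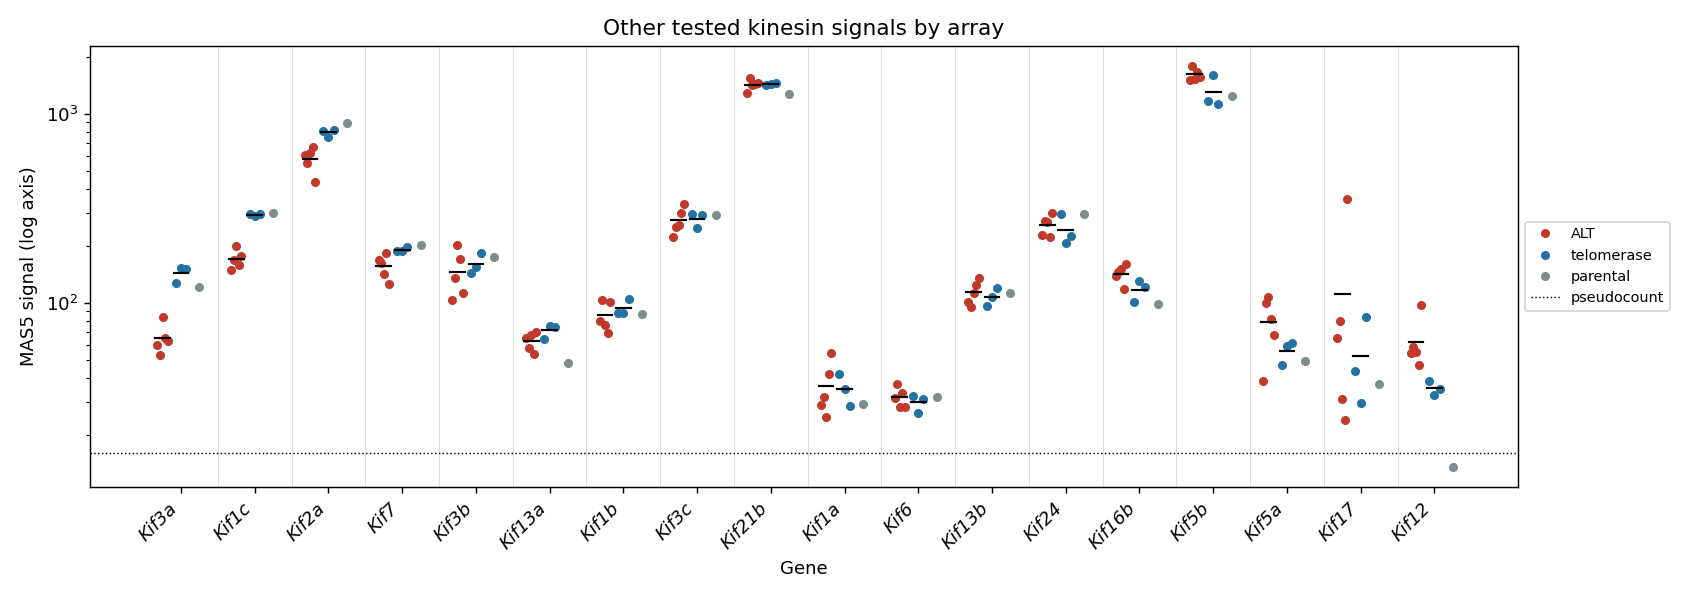
MAS5 signal (log axis) of the 18 tested kinesins outside the mitotic class in each ALT, telomerase and parental tumour, ordered by log2 change, with a black line at each group mean and the pseudocount of 16 dotted. Kif3a, Kif1c, Kif2a and Kif7 are lower in all 5 ALT tumours, Kif12 is higher in all 5, and Kif17 is highest in ALT tumour 5, at 354. Kif17 is also higher in ALT tumours 1 and 2 and telomerase tumour 3 than in the remaining arrays.

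The filter of 25.3 left 10 members untested: Kif14 and Kif15 of the mitotic class, and Kif2b, Kif5c, Kif9, Kif21a, Kif26a, Kif26b, Kif27 and Kif28. Their mean signals over all 9 arrays ran between 9.43 for Kif27 and 24.6 for Kif21a, just under the filter. The lowest tested members were Kif6 at 30.9 and Kif1a at 35.0. Kif19a, a ciliary kinesin-8 listed by RefSeq, had no probe set of its own and was not analysed here.

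The microtubule minus-end transport machinery and its tracks were also read. Of 20 tested dynein and dynactin genes, 2 rose and 2 fell (20%, beside 17.5% of all tested genes): Dynll2, a dynein light chain, rose by 0.50 and Pafah1b1, the dynein regulator Lis1, by 0.63, while Bicd2, a cargo adaptor, fell by 0.53 and Dync1h1, the motor heavy chain, by 0.28 on the log2 scale. With the mean of its probe sets Pafah1b1 turned to -0.12 and did not pass (limma adjusted p = 0.361). The call of Dync1h1 was lost without any single ALT tumour and without telomerase tumour 1 or 2, with limma adjusted p up to 0.151. Of 11 tubulins, 0 rose and 1 fell (beside 10.1% of all tested genes that fell): Tuba4a, an alpha-tubulin, averaged 5211 ± 374 in ALT tumours and 6872 ± 1048 in telomerase tumours (SD, n = 5 and 3; limma adjusted p = 0.024). That call was lost without ALT tumour 1 (limma adjusted p = 0.0529) and without telomerase tumour 1 or 2 (0.108 and 0.103).

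Genes with several probe sets show how far a change held across the transcript. The 37 genes had 99 probe sets, and 67 were above the filter. Of those 67, 17 passed when p was adjusted over 22342 probe sets (20.2% of which passed). The 7 higher kinesin probe sets compare with 7.72% of all probe sets, and the 10 lower with 12.5%. Of the members with over 1 tested probe set, Kif3a and Kif11 were those in which every probe set passed as lower. Single probe sets of Kif3b (1.01), Kif13b (0.64), Kif24 (0.69) and Kif1b (-0.56) passed where the brightest probe set of the gene did not.

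**Figure D4:**
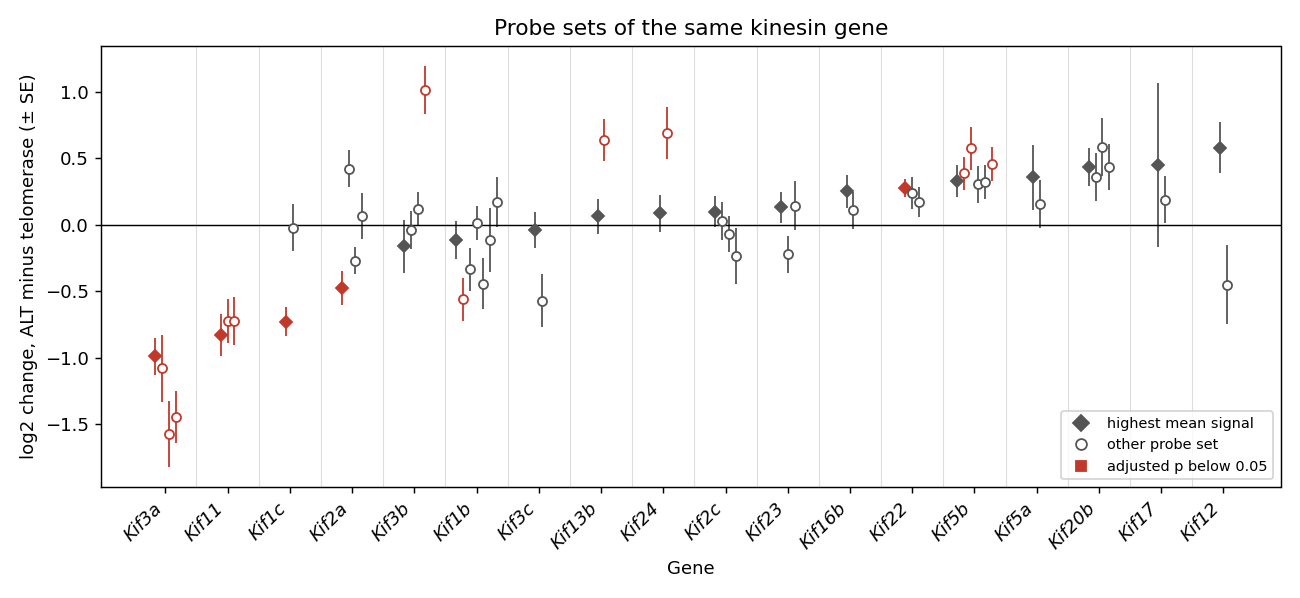
Log2 change (± SE) of every tested probe set of the kinesins with at least 2, ALT minus telomerase, with filled diamonds for the probe set with the highest mean signal, open circles for the rest, and red for adjusted p below 0.05. The 4 probe sets of Kif3a and the 3 of Kif11 all lie at -0.72 or lower. Those of Kif2a, Kif3b, Kif1b, Kif12, Kif2c and Kif23 lie on both sides of 0.

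The position of the genes gives a further description. Tested genes in RefSeq order on GRCm38.p6 were read for 10 neighbours on each side of a kinesin. Around Kif11, on chromosome 19, 8 of 20 neighbours fell and 1 rose, with a median of -0.31, against 54 of 439 that fell and 38 that rose on the whole chromosome. The median of these neighbours was -0.06 without telomerase tumour 1. The count of falling neighbours of Kif11 was 6 to 8 when single arrays were left out, 7 among arrays without acinar transcripts and 1 among arrays with them. Around Kif3a, on chromosome 11, 5 of 20 neighbours fell and 0 rose, against 97 of 1049 that fell and 59 that rose on the chromosome. The 5 became 3 without ALT tumour 1 and 2 without telomerase tumour 1 or 2. Kif2a lies on chromosome 13, where 178 of 443 tested genes fell and 9 rose, with a median of -0.37, beside the log2 change of -0.48 in Kif2a. Of its own 20 neighbours 3 fell and 1 rose. The 3 became 7 without ALT tumour 3, 2 without telomerase tumour 1 or 3, and 1 among arrays without acinar transcripts. Kif5b lies on chromosome 18, where 65 of 298 tested genes rose and 34 fell, with a median of 0.19. Of its own 20 neighbours 5 rose and 0 fell. The 5 became 4 to 8 when single arrays were left out, and 1 among arrays without acinar transcripts. Around Kif1c, also on chromosome 11 and lower in ALT tumours, 3 of 20 neighbours rose and 1 fell, with a median of 0.03. Around Kif20b, on chromosome 19 with neighbours shared with Kif11, 3 rose and 1 fell, with a median of 0.16. Around Kif22, on chromosome 7, 1 rose and 0 fell, against 58 of 947 that rose and 54 that fell there. Copy number was not measured, and its part in these values was not tested.

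**Figure D5:**
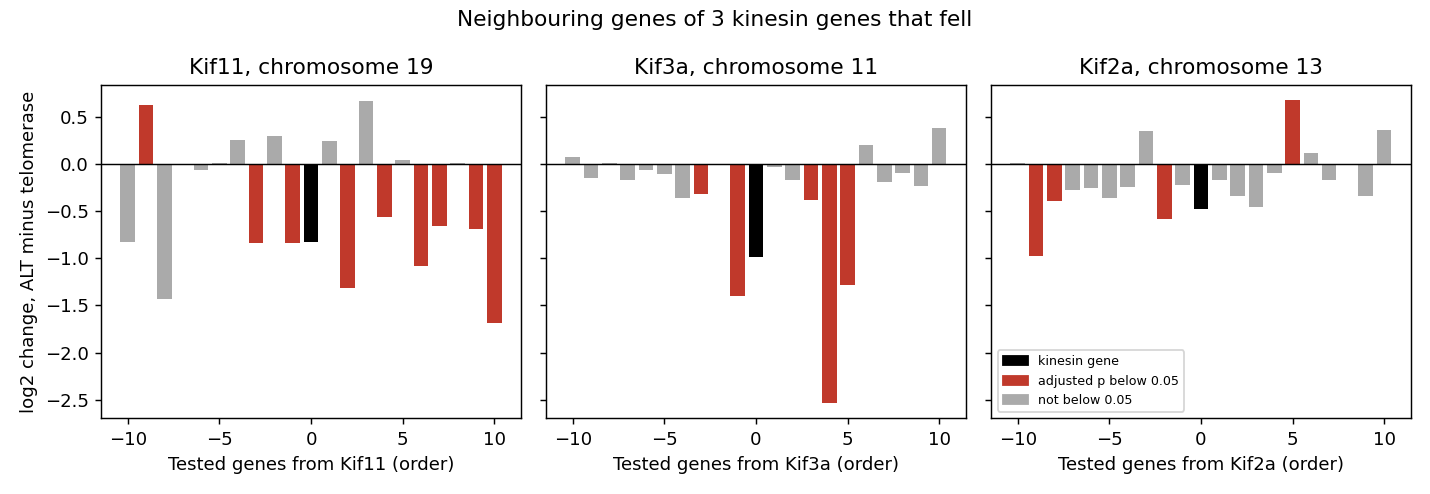
Log2 change, ALT minus telomerase, of the 10 tested genes on each side of Kif11, Kif3a and Kif2a in chromosome order, with the kinesin in black and red for limma adjusted p below 0.05. Red bars below 0 number 8 around Kif11, 5 around Kif3a and 3 around Kif2a.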

How the data were processed

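RNA from 9 T-cell lymphoma samples of mice was labelled with biotin and read on Affymetrix Mouse Genome 430 2.0 arrays. The authors deposited 1 intensity per probe set and array, computed with MAS5 per the submitters' processing notes, while version, scaling and detection calls are not stated there. No genome build is tied to the intensities.

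From these intensities log2(signal + 16) was computed, without further normalisation. Of 45101 probe sets, 34945 named a single gene and were used, 932 named several, 9211 named none, and 13 control probe sets that named a gene were left out. Each gene was represented by its brightest single-gene probe set over all 9 arrays, and genes in the lowest 40% of probe sets were not tested. limma (lmFit, eBayes with intensity trend) compared 5 ALT with 3 telomerase arrays at a Benjamini-Hochberg adjusted p of 0.05 over 12368 genes, of which 2169 passed. On simulated data with 200 changed genes among 12368, it recovered 31.3% at a log2 change of 0.5, 83.6% at 1 and 97% at 2, with 4 false calls. The number of arrays limits the precision. Tools were R 4.3.3, limma 3.58.1, Python 3.11.15, numpy 2.4.6, pandas 2.3.3 and matplotlib 3.10.9. RefSeq listed 38 kinesin symbols, and 1 probe set that named Kif27 with another gene was left out.

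Members and gene lists were chosen with earlier results of these data known. Named were all mitotic kinesins, the other kinesins that passed the threshold, the remaining ones by range with some in full, and up to 4 called genes of each list with the smallest p, beside Mki67, Top2a, Pcna and family partners. Summed signals of the remaining marker lists, in ALT and telomerase tumours, were 443 to 618 and 412 to 507 for B cells, 3037 to 6300 and 2685 to 4627 for myeloid cells, 3346 to 5871 and 3695 to 5700 for stroma, 251 to 321 and 244 to 445 for endothelium, 835 to 1724 and 1361 to 2195 for adipocytes, and 335 to 459 and 367 to 403 for neurons. Cd79b made most of the B-cell sum and Tubb3 most of the neuron sum, at means of 456 and 332 over all arrays. Alternatives covered the pseudocount, filter, normalisation, probe set choice, variance model, threshold, parental array, acinar transcripts, the replicate number as a block and single arrays left out.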

Additional observations from a re-analysis of the deposited data

Results flagged for a closer look

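In 2 of the 27 tested kinesins 1 ALT tumour lay far from the other 4, by Dixon's criterion on the signal scale, and in both it was ALT tumour 5. Kif12 had a signal of 97.37 in that tumour, with a gap to the next value of 0.765 of the range of the ALT group. Kif17 had a signal of 353.56 there, with a gap of 0.830 of the range. Chance gives about 1 such value in 20 groups. On the log2 scale 0 of the 27 genes met the criterion. ALT tumour 5 also had the highest summed acinar signal (155630). The next highest Kif17 signals, 83.8, 80.0 and 65.3, were in telomerase tumour 3 and ALT tumours 2 and 1, which also held acinar transcripts. The part of those transcripts in the Kif12 and Kif17 values was not tested.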

How the results depend on the processing

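The count of all genes past the threshold, 2169, was 329 within arrays with acinar transcripts, 833 within arrays without them, 4509 with each probe set on its own, and 1163 to 2096 with single arrays left out. The kinesin count of 5 was 3 with an acinar covariate, 0 and 1 within arrays with and without acinar transcripts, 9 at an adjusted p of 0.1, 17 with each probe set on its own, 2 with the mean of probe sets, 9 with the parental array added, and 3 to 6 with single arrays left out. The mitotic count of 2 was 1 with the covariate, 0 and 1 within those arrays, 4 at 0.1, 4 with each probe set on its own, 1 with the mean of probe sets, 1 without the intensity trend, 4 with the parental array added, 1 to 3 with single arrays left out, and 1 with probe sets that carry no cross-matching suffix, an alternative chosen after seeing the data. The mitotic median of 0.13 was 0.367 within arrays with acinar transcripts and 0.1005 to 0.2768 with single arrays left out, highest without telomerase tumour 2. The median of the other kinesins was -0.0766 to 0.0428 with single arrays left out. Pseudocounts of 1 and 64, robust moderation, a stricter filter and no filter kept the 5 called kinesins.

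The replicate numbers could not be shown to pair the tumours: same-numbered ALT and telomerase tumours correlated at -0.302, -0.402 and -0.572 in their deviations. Each of these pairs joined an array with acinar transcripts to an array without them, so the correlations cannot decide on pairing. Telomerase tumour 3 correlated at 0.387, 0.452 and 0.414 with ALT tumours 1, 2 and 5, which also held acinar transcripts, and at -0.493 with ALT tumour 4. With the number as a block, 991 genes, 3 kinesins (Kif11, Kif1c and Kif3a) and 1 mitotic kinesin passed, and Kif13b and Kif1a turned to -0.053 and -0.195.

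Among the kinesins, the sign changed otherwise in members that had not passed. Outside the family Nusap1, Pafah1b1 and Anln changed sign with the mean of probe sets (-0.40, -0.12 and -0.01). Within arrays without acinar transcripts these were Kif17 (-0.262), Kif1a (-0.158), Kif20a (-0.089), Kif21b (0.002), Kif24 (-0.018), Kif3b (0.296), Kif3c (0.035) and Kif4 (-0.207), and within arrays with them Kif13b (-0.117). With the acinar covariate Kif17 gave -0.065. With the mean of probe sets Kif13a gave 0.078, Kif21b 0.203, Kif2c -0.045 and Kif3b 0.234. Quantile normalisation gave 0.023 for Kif21b and 0.030 for Kif3c, and the parental array 0.030 for Kif21b. With single arrays left out, kinesins on both sides of 0 were Kif21b (-0.04 to 0.024), Kif3c (-0.11 to 0.031), Kif1a (-0.099 to 0.108), Kif17 (-0.062 to 0.767), Kif4 (-0.101 to 0.139), Kif13b (-0.003 to 0.135), Kif24 (-0.015 to 0.227), Kif6 (-0.006 to 0.094) and Kif20a (-0.086 to 0.306). The cause was not tested. MAS5 signals near 16 carry background, so Kif14, Kif15 and the remaining dim members have no measured change. The comparison among arrays with acinar transcripts rests on telomerase tumour 3 alone, assumed to vary like the ALT tumours.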
